A study of Mus musculus with 4 samples.

Results

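The annexin genes measured in these libraries were Anxa1, Anxa2, Anxa3, Anxa4, Anxa5, Anxa6, Anxa7, Anxa8 and Anxa11, which are 9 of 43437 gene entries. They were taken by gene symbol. The family was chosen by the FPKM of Anxa8, which had stood out between the same HDAC4 KO and control libraries, so the values below describe these genes and carry no test. RNA was sequenced from muscle stem cells (satellite cells) of C57BL/6 mice, which were 4 weeks old. The cells had been sorted by FACS and then grown for 24 h before harvest. The sort used CD45, Ter119, CD31, Sca1 and integrin α7. Every library came from mice of the genotype HDAC4fl/fl Pax7CE/+ Cre. Control cells (2 libraries, numbered 3 and 4) came from mice given vehicle, and HDAC4 KO cells (2 libraries, also numbered 3 and 4) from mice given tamoxifen (TMX). In both groups the CreER fusion sat in 1 Pax7 allele, so that all cells had lost that copy of Pax7. Only the KO mice received TMX, so that the drug, the active recombinase and the loss of HDAC4 cannot be told apart. The labels do not say whether libraries came from separate animals, and p-values then measure only the spread between these samples.

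Annexins are proteins that bind acidic phospholipids of membranes when calcium is present. They share a conserved core built of repeats, and each has its own N-terminal tail, through which several of them bind S100 proteins. In muscle, where contraction tears the plasma membrane, annexins A1, A2, A5 and A6 are known to gather at the wound and to help seal it. Other members act in endosome traffic, in blood clotting and fibrinolysis, and in the control of inflammation.

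The promoters of the gene that stood out and of the most abundant settled member are shown because their RNAs lie at opposite ends of the levels of the 5 settled members. RefSeq promoter entries (GRCm38.p6) matched 7 of the 9 members, with 9 entries in all, and Anxa3 and Anxa6 had none. The window searched was the 250 bases before the start. The Anxa8 stretch is chr14:34085729-34085978 and the Anxa2 stretch is chr9:69453433-69453619, both on the + strand. The last 63 bases of the Anxa2 window lie in an annotated exon with an earlier start and are not printed. Capitals mark matches to the motifs named in the next paragraph.
Anxa8: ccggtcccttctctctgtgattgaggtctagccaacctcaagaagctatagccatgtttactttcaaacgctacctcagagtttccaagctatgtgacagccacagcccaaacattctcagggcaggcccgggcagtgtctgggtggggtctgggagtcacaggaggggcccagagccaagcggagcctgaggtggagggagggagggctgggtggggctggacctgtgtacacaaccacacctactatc
Anxa2: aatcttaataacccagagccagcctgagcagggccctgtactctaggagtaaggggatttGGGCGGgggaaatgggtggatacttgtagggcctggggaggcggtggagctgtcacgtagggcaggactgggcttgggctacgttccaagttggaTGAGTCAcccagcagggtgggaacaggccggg

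Motifs were searched on both strands in the 250 bases before each start. The Anxa8 window held no match to the MEF2 site (searched by its consensus), the E-box CANNTG, the AP-1 site TGANTCA, the MCAT element CATTCC, the GC box GGGCGG or the TATA box TATAAA. The Anxa2 window held 1 AP-1 site, 3 GC boxes and 1 TATA box, none overlapping, of which the AP-1 site and 1 GC box lie in the printed stretch. Its GC content was 62.4%, against 58.0% for Anxa8 and a median of 52.4% over all promoters. Among the 9 annexin promoters, 0 held a MEF2 match, and 2.92% of all 32851 promoters did. An E-box was found in 5 of the 9 and in 66.2% of all promoters. A GC box was found in 4 of the 9 (entries of Anxa2, Anxa7 and Anxa11) and in 32.7% of all. An AP-1 match was found in Anxa2 alone and in 6.75% of all promoters, an MCAT match in Anxa1 alone and in 12.6%, and a TATA box in Anxa1 and Anxa2 and in 12.4%. These are matches of letters and say nothing of binding.

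Values are FPKM, fragments scaled to transcript length and to library size, which allow levels of different genes to be set side by side per length. Decimal points were missing from the deposited tables and were put back. This fixed the ratios between libraries for all 9 genes. It fixed the absolute level of 5 genes (Anxa2, Anxa3, Anxa5, Anxa6 and Anxa8), while the level of the other 4 is known only up to a shared power of 10: Anxa1, Anxa4, Anxa7 and Anxa11. For these, values are given relative to the control mean. Differences are on the log2(FPKM + 1) scale, as HDAC4 KO minus control, with the standard error (SE) of a limma fit across the 11775 genes that averaged at least 1 FPKM. For any gene with an unsettled level, the difference and its SE hold only at the level taken. The depth is unknown, since FPKM does not carry it, and each library contributes the deposited 95% confidence bounds as its own measure of precision.

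Hdac4, the deleted gene, was lower in both KO libraries. Its common power of 10 was not settled, and the KO mean was 36.2% of the control mean, with a log2 difference of -1.13 ± 0.18 (SE, n = 2 per group) and an adjusted p of 0.152 in limma. Between 11513 and 11779 genes reached 1 FPKM in a library. The labelled cell type held its markers, with Myod1, the myogenic determination factor, at 633 and 833 FPKM in controls 3 and 4 and 563 and 530.0 FPKM in KO 3 and KO 4, and Itga7, which encodes the integrin of the sort, at 124 to 149 FPKM, while Ptprc (CD45) did not exceed 0.0275 FPKM. Control 3 stood apart in muscle fibre and blood RNA. Mylpf, a myosin light chain of mature fibres, measured 1394 FPKM in control 3 and 117, 77.9 and 168 FPKM in control 4, KO 3 and KO 4, and the haemoglobin gene Hbb-bs measured 21.0 FPKM there and 0.199 to 1.28 FPKM elsewhere. Without control 3, the median log2 difference of the 9 annexin genes was 0.33, against 0.39 with it, and 8 of 9 differences were above 0. In bulk RNA, fewer cells of a type and less RNA per cell cannot be told apart.

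Annexin RNA was higher in HDAC4 KO satellite cells for most of the family. The difference was above 0 for all 9 genes, and both KO libraries lay above both controls for 8 of the 9, with Anxa11 as the exception. Among all tested genes, 31.2% had both KO libraries above both controls and 17.8% had both below. The median difference was 0.39 over the 9 genes and 0.04 over all tested genes, of which 57.6% were above 0. With adjusted p under 0.05 over genes of every type, 0 of the 9 were called, and 0.0934% of all tested genes were. With protein-coding genes alone, 1 of the 9 (Anxa8) was called, and 0.946% of those genes were (0.908% higher and 0.0382% lower). Anxa8 passed the filter of 1 FPKM only through the KO libraries, where it is high, and its control mean was 0.452 FPKM, so that the choice of the gene and the filter bear on its call. The contrast chose the family, and nothing is read from these counts.

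**Figure D1:**
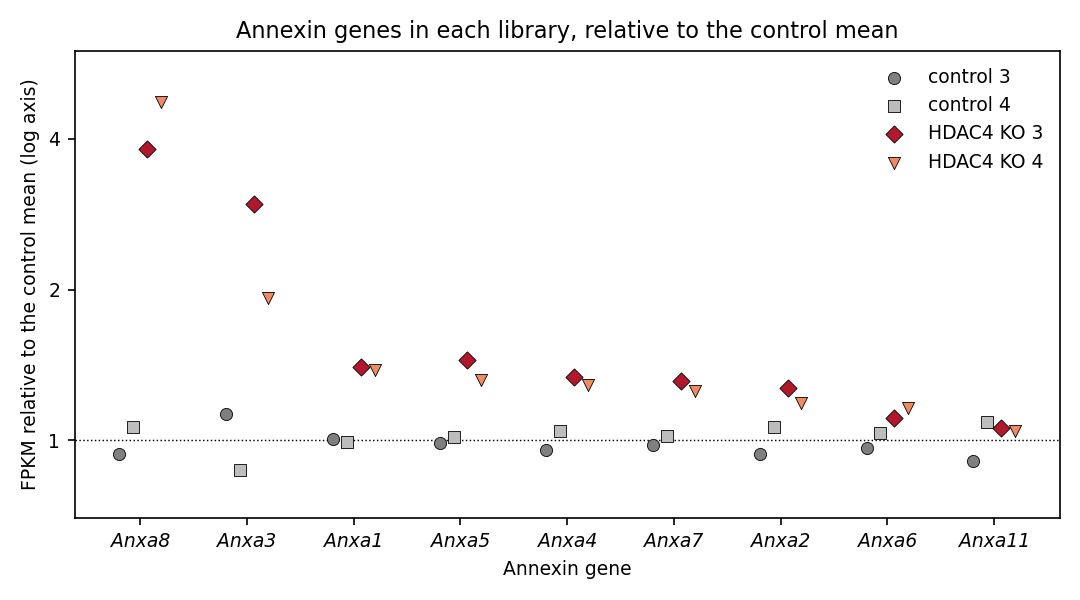
FPKM of each annexin gene in the 4 libraries, divided by the mean of the 2 control libraries (log axis), with 1 point per library and genes ordered by the ratio of KO to control mean. The KO points of Anxa8 lie at 3.82 and 4.74, those of Anxa3 at 2.96 and 1.93, and only Anxa11 has KO points within the control range.

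Anxa8, which encodes a calcium-dependent membrane binder known from late endosomes, was the lowest settled member in every library and had the largest ratio between groups. It measured 0.424 and 0.480 FPKM in controls 3 and 4 and 1.73 and 2.14 FPKM in KO 3 and KO 4. The lower KO library was 3.60 times the higher control, and the groups did not overlap. The deposited 95% bounds reached up to 0.618 FPKM in the controls and down to 1.43 FPKM in the KO libraries, so that they did not touch either. The KO mean was 1.93 ± 0.293 FPKM and the control mean 0.452 ± 0.0398 FPKM (SD, n = 2 each), a ratio of 4.28. The difference was 1.01 ± 0.18 (SE) on the log2(FPKM + 1) scale, which understates the change of a gene this low. A larger positive difference was found for 1.27% of tested genes, a share that leaves out genes lower in the KO libraries. The difference of Anxa8 depended on the pseudocount: 1.88 with 0.1 added and 0.35 with 5 added, with the KO libraries higher in each case.

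Precision was poorest for Anxa8. Its bounds spanned 15.2% to 28.8% of the estimate to each side, while those of the other members spanned 1.72% to 8.64%. The gene (ENSMUSG00000021950) lies on chromosome 14 at 34085981 to 34100571 (GRCm38, + strand), with 2 annotated transcripts and 1880 exonic bases. It lies within the span of A630023A22Rik, a gene of the opposite strand, with which it shares 0 exon bases. That gene measured 0.0299 to 0.0686 FPKM and lay below Anxa8 in every library. The kit kept strand, but the strand setting of the counting is not given in the sources used here.

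Anxa3, a less studied member known from phagocytes, was next in ratio. It measured 8.00 and 6.17 FPKM in controls 3 and 4 and 21.0 and 13.7 FPKM in KO 3 and KO 4. The KO libraries differed from each other more than the controls did, and still both lay above both controls. The means were 17.3 ± 5.18 and 7.09 ± 1.30 FPKM (SD, n = 2 each), a ratio of 2.44. Its difference of 1.16 ± 0.23 (SE) was the largest of the family on the log2(FPKM + 1) scale, and 0.994% of tested genes had a larger positive one. Leaving out KO 3 lowered it to 0.87, and leaving out KO 4 raised it to 1.45. The gene (ENSMUSG00000029484) lies on chromosome 5 at 96793385 to 96845968, on the + strand, and shares 112 of its 3643 exon bases with Gm42603.

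**Figure D2:**
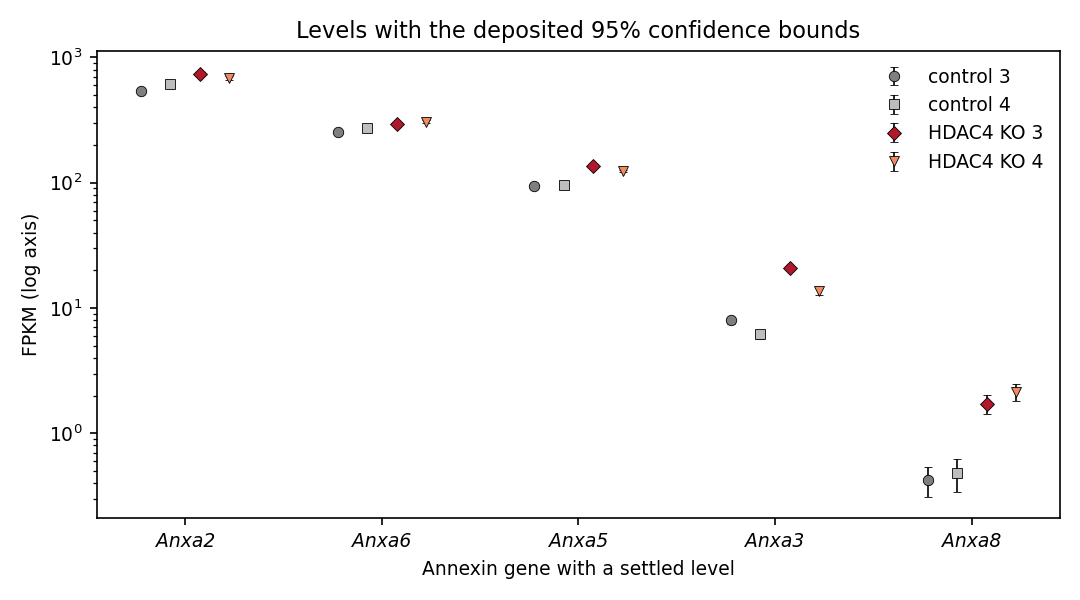
FPKM (log axis) of the 5 annexin genes with a settled level in each of the 4 libraries, with bars for the deposited 95% confidence bounds, which are smaller than the point for most. The order Anxa2, Anxa6, Anxa5, Anxa3, Anxa8 holds in every library, and the KO points lie above the control points for each gene.

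The annexins of membrane repair were the most abundant of the settled members and differed by less than Anxa3 and Anxa8. Smaller differences were not particular to them, since Anxa4, Anxa7 and Anxa11 had ratios of 1.32, 1.28 and 1.05. Anxa2, which pairs with S100A10 and carries plasminogen and its activator on the cell surface, measured 543 and 613 FPKM in controls 3 and 4 and 735 and 687 FPKM in KO 3 and KO 4. The groups did not overlap, the ratio was 1.23 and the difference 0.30 ± 0.11 (SE). Anxa6, which is known to form a cap at muscle membrane wounds, measured 256 and 275 FPKM in the controls and 294 and 308 FPKM in the KO libraries. The step from the highest control to the lowest KO library was a factor of 1.07, the smallest among the 8 genes whose groups did not overlap, and the difference was 0.18 ± 0.10 (SE).

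Anxa5 binds phosphatidylserine and assembles into lattices on torn membranes. It measured 93.4 and 96.1 FPKM in controls 3 and 4 and 137 and 125 FPKM in KO 3 and KO 4. Both KO libraries exceeded the controls, with a ratio of 1.38 and a difference of 0.46 ± 0.10 (SE). Its bounds were the narrowest of the family, at 1.72% to 2.02% to each side.

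The settled members kept 1 order in all 4 libraries. Anxa2 stood highest, followed by Anxa6, Anxa5, Anxa3 and Anxa8. The libraries of neighbouring genes in this order never overlapped, since the lowest Anxa2 value was 543 FPKM and the highest Anxa6 value 308 FPKM, and the lowest Anxa3 value was 6.17 FPKM and the highest Anxa8 value 2.14 FPKM. The 4 genes with an unsettled power of 10 cannot be placed in this order.

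Anxa1, which restrains phospholipase A2 and signals through formyl peptide receptors, had the closest replicates of the family. Relative to its control mean it stood at 1.01 and 0.993 in controls 3 and 4 and at 1.40 and 1.38 in KO 3 and KO 4. The groups did not overlap, and the ratio of means was 1.39. The difference was 0.46 ± 0.09 (SE) at the level taken, and 0.37 with the level at a 10th of it.

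Anxa4, a binder of membranes in secretory and epithelial cells, stood at 0.958 and 1.04 of its control mean in controls 3 and 4 and at 1.34 and 1.29 in KO 3 and KO 4. The ratio of means was 1.32, and the difference was 0.39 ± 0.10 (SE). Anxa7, known as synexin for its part in membrane fusion, stood at 0.980 and 1.02 in the controls and at 1.31 and 1.26 in the KO libraries. For both genes the KO libraries lay above the controls and closer to each other than to them. The Anxa7 ratio was 1.28 and its difference 0.35 ± 0.09 (SE).

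Anxa11, which ties RNA granules to lysosomes and is mutated in a human motor neuron disease, was the member without separated groups. It stood at 0.910 and 1.09 of its control mean in controls 3 and 4 and at 1.06 and 1.04 in KO 3 and KO 4. Both KO libraries fell between the controls, and the difference of 0.07 ± 0.12 (SE) was smaller than its error. It was -0.05 without control 3 and 0.20 without control 4. Anxa11os, an antisense gene, shares 113 of its 4135 exon bases (2.73%) and measured 0.951 to 1.37 FPKM.

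**Figure D3:**
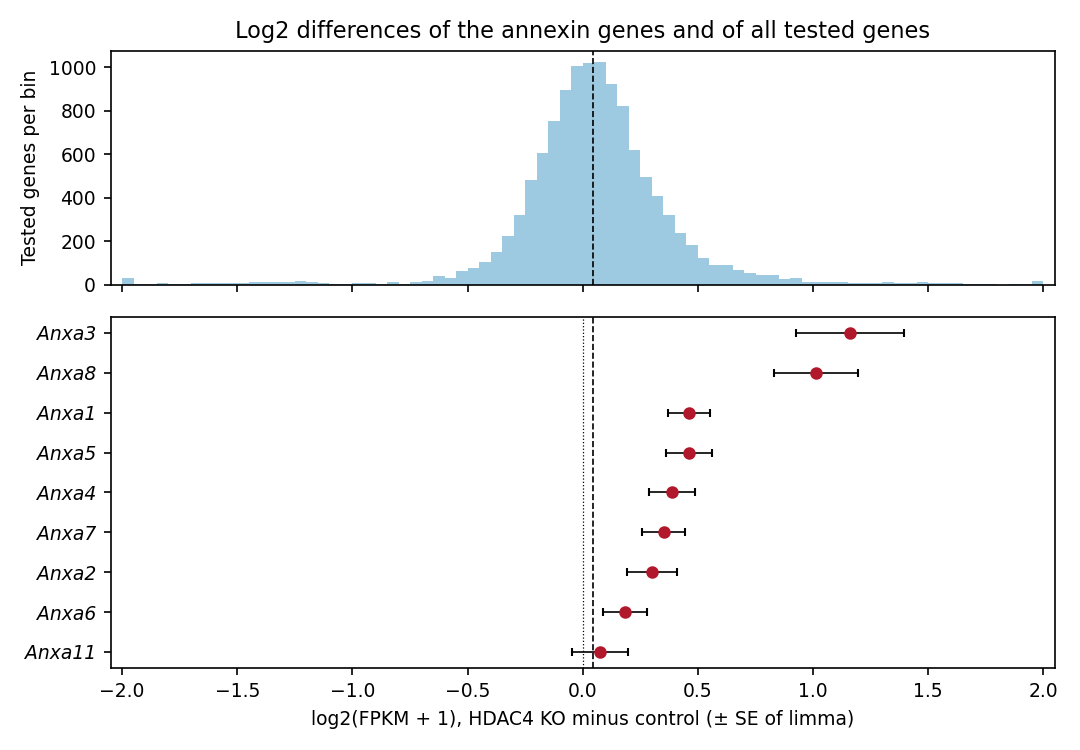
Log2(FPKM + 1) difference, HDAC4 KO minus control, of all 11775 tested genes (upper panel, number of genes per bin, values past either end in the end bins) and of the 9 annexin genes (lower panel, points with the SE of limma). The dashed line marks the median of all tested genes, 0.04. Anxa3 and Anxa8 lie at 1.16 and 1.01, 6 members between 0.18 and 0.46, and Anxa11 at 0.07.

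The 9 genes lie at separate places of the genome, and those sharing a chromosome differed. Anxa7, Anxa8 and Anxa11 all lie on chromosome 14, at 20455261 to 20480133, 34085981 to 34100571 and 25842156 to 25886804, and their ratios were 1.28, 4.28 and 1.05. The longest run of bases shared by protein-coding transcripts of any 2 of the 9 genes was 18 bases, over 36 pairs. Anxa8 shared its longest run with Anxa2, and that run is shown as the longest stretch that the scarcest and the most abundant settled member have in common.
Run shared by Anxa8 and Anxa2: AGCAATGTGCAGAGGCAG

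The other annexins gave little signal. Anxa9 measured 1.55 and 2.01 FPKM in controls 3 and 4 and 1.86 and 1.71 FPKM in KO 3 and KO 4, with overlapping groups and a difference of 0.01 ± 0.17 (SE). Anxa13, an intestinal annexin, measured 0.120 and 0.151 FPKM in the controls and 0.244 and 0.386 FPKM in the KO libraries, below the filter for testing. No value was kept for Anxa10.

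The pattern nearest to Anxa8 over the 4 libraries was sought among all tested genes, as the Euclidean distance between mean-centred log2(FPKM + 1) values. The 5 nearest genes were Shroom2, Cspg4, Mdm2, Lce1h and Aatk, at distances of 0.0486 to 0.107. This scale understates the change of a gene as low as Anxa8, so a near gene need not share its ratio. Each of the 5 had a smaller ratio of KO to control mean than the 4.28 of Anxa8. Lce1h, a cornified envelope gene of skin, measured 0.766 and 0.865 FPKM in controls 3 and 4 and 2.69 and 3.16 FPKM in KO 3 and KO 4, and Aatk, a kinase gene, 0.633, 0.611, 2.02 and 2.25 FPKM. Lce1h and Aatk lay below 1 FPKM in both controls, so that, like Anxa8, they passed the filter only through the KO libraries. Shroom2, Cspg4 and Mdm2 have an unsettled level, and their distances depend on it. No annexin was close. The nearest members were Anxa1, at a distance of 0.574 (rank 532), which holds only at the level taken for it, and the settled Anxa5, at 0.600 (rank 655).

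For Anxa2, the 5 nearest genes were Ccs, Nelfe, Dact3, Pld3 and Apobec3, at distances of 0.0190 to 0.0287. Of these Pld3 had a settled level, at 35.3 and 40.5 FPKM in controls 3 and 4 and 48.7 and 44.7 FPKM in KO 3 and KO 4. The nearest annexins were Anxa7 and Anxa4, at ranks 257 and 260, which hold only at the levels taken for these unsettled genes. The nearest settled one was Anxa6, at rank 1110, and Anxa8 and Anxa3 were the farthest, at ranks 10645 and 11223. Anxa8 and Anxa3 thus lay farther from Anxa2 than the other members did.

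Genes that act with annexins were read from 6 lists of 65 genes, of which 50 were tested. With limma over genes of every type, 0 were called higher and 0 lower, and 0.034% and 0.0594% of all tested genes were. The smallest adjusted p was 0.0910. At an unadjusted p under 0.05, 19 of the 50 were higher and 0 lower, against 11.2% and 3.85% of all tested genes. Both KO libraries lay above both controls for 33 of the 50 and below for 2, against 31.2% and 17.8% of all tested genes. With protein-coding genes alone, 1 was called higher (Serpine2), against 0.908% of those genes. The median difference of the 50 genes was 0.21, and 0.17 without the plasminogen list.

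**Figure D4:**
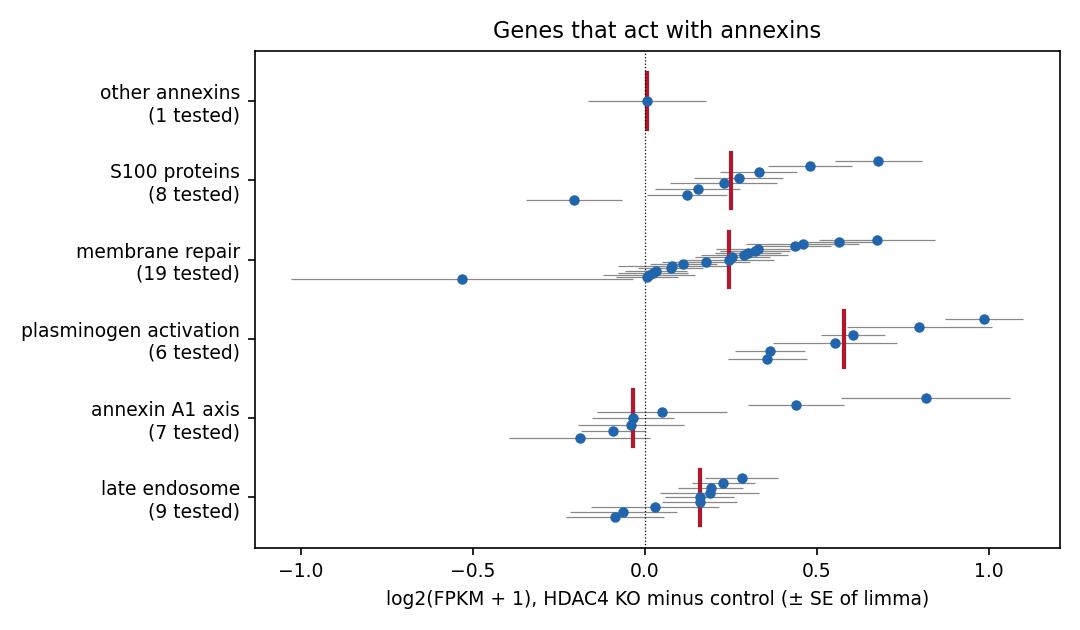
Log2(FPKM + 1) difference, HDAC4 KO minus control, of each tested gene that acts with annexins, by list (points with the SE of limma, red line at the list's median). All 6 tested plasminogen activation genes lie above 0 with a median of 0.58, while the annexin A1 axis has a median of -0.04.

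Plasminogen activation, the cascade for which annexin A2 with S100A10 is a surface receptor, had the highest median, 0.58 over 6 tested genes. All 6 had both KO libraries above both controls, against 31.2% of all tested genes, and an unadjusted p under 0.05 in limma. Plat had a control mean of 0.900 FPKM and passed the filter only through the KO libraries, so that the filter bears on its place in this count. Plg and Serpinf2 did not exceed 0.0154 and 0.0874 FPKM and were not tested. Serpine2, an inhibitor of thrombin and urokinase, measured 46.5 and 54.1 FPKM in controls 3 and 4 and 97.7 and 103 FPKM in KO 3 and KO 4, a difference of 0.99 ± 0.11 (SE). Its adjusted p in limma was 0.0910 over genes of every type and 0.0256 with protein-coding genes alone. It is an inhibitor of the proteases the list is named for. The activator Plau measured 45.6 and 48.3 FPKM in the controls and 72.0 and 71.8 FPKM in the KO libraries, and was not called in either fit (adjusted p of 0.142 and 0.0554 in limma). The smallest difference in the list was that of the urokinase receptor Plaur, 0.36 ± 0.11 (SE).

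S100 proteins bind calcium and dock on annexin tails. Of 12 listed genes 8 were tested, 7 had a difference above 0, and the median was 0.25. Both KO libraries lay above both controls for 5 of them, against 31.2% of all tested genes. S100a10, the partner of annexin A2, measured 417 and 472 FPKM in controls 3 and 4 and 582 and 535 FPKM in KO 3 and KO 4. Its difference of 0.33 ± 0.11 (SE) stood beside 0.30 ± 0.11 for Anxa2, and neither gene was called. S100a11, a partner of annexin A1, measured 462 and 510 FPKM in the controls and 536 and 641 FPKM in the KO libraries. The largest positive difference was that of S100a16, 0.68 ± 0.13 (SE, adjusted p = 0.165 in limma), and the negative one was that of S100a3, -0.21 ± 0.14. S100a16 and S100a3 have an unsettled level.

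Membrane repair genes other than annexins gave a median of 0.25 over 19 tested genes. Of these, 15 had both KO libraries above both controls and 0 both below, against 31.2% and 17.8% of all tested genes. Dysf, which encodes dysferlin, the calcium sensor of muscle membrane repair, measured 1.73 and 1.33 FPKM in controls 3 and 4 and 2.49 and 2.44 FPKM in KO 3 and KO 4. Ahnak, a giant scaffold bound by annexin A2 and S100A10, measured 13.4 and 14.2 FPKM in the controls and 19.6 and 22.3 FPKM in the KO libraries. Both had separated groups, and neither was called (adjusted p of 0.302 and 0.183 in limma). Ahnak2, a relative of Ahnak, had the largest positive difference, 0.68 ± 0.17 (SE). The negative one was that of Cav3, a caveolin of muscle fibres, at -0.53 ± 0.50, which rested on 3.35 FPKM in control 3 against 0.577 to 0.934 FPKM elsewhere.

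The annexin A1 axis had differences of both signs. Of 7 tested genes 3 had a difference above 0, and the median was -0.04. Pla2g4a, the cytosolic phospholipase A2 that annexin A1 restrains, had the largest positive difference, with 2.18 and 1.05 FPKM in controls 3 and 4 and 3.58 and 3.40 FPKM in KO 3 and KO 4 (0.82 ± 0.25, adjusted p = 0.255 in limma). The largest negative one was that of Trpm7, a channel kinase that phosphorylates annexin A1, at -0.19 ± 0.21. The receptors Fpr1 and Fpr2 did not exceed 0.102 and 0.0775 FPKM.

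Genes listed as endosome partners of annexin A8, which is known from late endosomes, gave a median of 0.16 over 9 tested genes. Both KO libraries lay above both controls for 5 of them, against 31.2% of all tested genes. Cd63, the tetraspanin whose surface supply depends on annexin A8 in human endothelial cells, measured 829 and 899 FPKM in controls 3 and 4 and 1017 and 914 FPKM in KO 3 and KO 4. The difference of 0.16 ± 0.11 (SE) was not called (adjusted p = 0.523 in limma). Hgs, a sorting factor of endosomes, had the largest positive difference, 0.28 ± 0.11, and Lamp2 (level unsettled) the largest negative, -0.09 ± 0.14.

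Some markers of satellite cells and of other cell types also lay apart between the groups. Of 7 tested satellite cell genes, 0 were called in either fit. Among the 7, 3 had both KO libraries below both controls and 2 had both above, against 17.8% and 31.2% of all tested genes. The lower ones were Myod1, Pax7, the satellite cell factor (-0.20 ± 0.12, SE), and Myf5, a myogenic factor (-0.29 ± 0.10). The higher ones were the surface proteins Sdc4 (0.48 ± 0.15) and Cd34 (0.60 ± 0.13). Pax7, Myf5, Sdc4 and Cd34 have an unsettled level. Of 6 glial genes 5 were tested, and all 5 had both KO libraries above both controls, with a median difference of 0.97. With protein-coding genes alone, 2 of them were called higher (Sox10 and Ngfr), against 0.908% of those genes. Over genes of every type, 0 of the glial genes were called. The level of Ngfr, whose difference is that median, is unsettled. The summed level of the 5 glial genes with a settled level was 3.89 to 6.48 FPKM in the controls and 12.1 to 14.9 FPKM in the KO libraries. Of 7 smooth muscle and pericyte genes, 3 were tested (Acta2, Tagln and Cspg4, levels unsettled), with a median of 1.31. All 3 were called higher with protein-coding genes alone, against 0.908% of those genes, and 0 over genes of every type. The 4 settled genes of that list, Myh11, Rgs5, Kcnj8 and Pdgfrb, summed to 0.878 to 2.40 FPKM in the controls and 1.92 to 2.08 FPKM in the KO libraries.

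Annexin A8 is known from epithelia. Of 12 epithelial and mesothelial genes 4 were tested and 3 had both KO libraries above both controls, against 31.2% of all tested genes. Among them Krt8 (1.18 ± 0.19, SE, level unsettled) was the 1 gene of the list called higher with protein-coding genes alone, against 0.908% of those genes. Over genes of every type, 0 of the list were called. The 9 settled genes summed to 0.914 to 2.33 FPKM in the controls and 3.19 to 3.74 FPKM in the KO libraries, while the defining markers Krt5, Krt14 and Epcam did not exceed 0.0957, 0.202 and 0.254 FPKM. Krt19 led the sum, with 1.02 and 0.455 FPKM in controls 3 and 4 and 2.19 and 2.06 FPKM in KO 3 and KO 4. Its control mean was 0.735 FPKM, so that it passed the filter only through the KO libraries. Fibro-adipogenic genes with a settled level (6 of 8) summed to 13.5 and 4.99 FPKM in controls 3 and 4 and to 13.9 and 14.2 FPKM in KO 3 and KO 4. Dcn led that sum, with 9.86 and 3.69 FPKM in controls 3 and 4 and 10.4 and 10.3 FPKM in KO 3 and KO 4. Pdgfra and Cd55 also had a higher mean in the KO libraries. Dpt, Pi16 and Dpp4 had a lower one and were highest in control 3. The 5 settled endothelial genes summed to 2.32 to 4.87 FPKM in the controls and 3.57 to 4.49 FPKM in the KO libraries. Of the 4 endothelial genes tested, 2 had both KO libraries above both controls, Cdh5 (0.93 ± 0.23, level unsettled and outside the sum) and Tek (0.47 ± 0.18), and neither was called. Tek had a control mean of 0.716 FPKM and passed the filter only through the KO libraries. For blood genes, the 7 settled ones summed to 32.2 FPKM in control 3 and 3.80 to 5.45 FPKM elsewhere, a sum led by haemoglobin. Of the 4 blood genes tested, the myeloid genes Lyz2 (1.30 ± 0.22, level unsettled and outside the sum) and Cd68 (0.30 ± 0.13) had both KO libraries above both controls. Lyz2 was called higher with protein-coding genes alone, against 0.908% of those genes, and was not called over genes of every type. The 3 settled tendon genes summed to 2.70 FPKM in control 3 and 0.547 to 1.13 FPKM elsewhere. The part of these cells in the annexin values was not tested.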

How the data were processed

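Single-end libraries were made with a stranded mRNA kit. Per the submitters' processing notes, reads were handled with CASAVA 1.8.2, cutadapt, TopHat, Cufflinks and Cuffdiff on GRCm38. The deposited tables hold, for every library, Cufflinks FPKM of each gene with 95% confidence bounds, and a table of group FPKM whose log2 fold changes, test statistics (score columns), p-values and q-values were not used.

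The decimal point was missing from 11652 to 11903 of the 43496 deposited FPKM entries of a library. A point was accepted if it placed the estimate midway between its bounds. The width of the bounds also had to be alike over libraries, with the next best placing worse by at least 0.5 on the log10 scale. Where group means reached 1 FPKM, placings with means within 0.1 (log10) of the authors' group FPKM were preferred if there were any. Of 43437 gene entries, 25116 were kept. Those left out were 17712 at 0 in every library, 40 listed at several places, 18 failed estimates, 78 with no midway point and 473 with more than 1 ratio. When a known point was hidden in 1 library, 5593 of 5624 (99.45%) came back right. A common power of 10 stayed unsettled for 7899 of 11775 tested genes. The width of the bounds served to set it, which was right for 2385 of 3098 genes (76.99%) with a hidden level, so levels of such genes are not printed.

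Genes averaging at least 1 FPKM were fitted with limma 3.58.1 in R 4.3.3 on log2(FPKM + 1) with a mean-dependent prior and Benjamini-Hochberg adjustment over all of them, called at 0.05. With 2 against 2 libraries an exact permutation test cannot go below p = 0.333, and none was used. The fit and the restoring of points were tested on simulated data. Alternatives were other pseudocounts, filters, gene types, scalings and priors, a replicate term and leaving out each library. The members, the lists and the tests were chosen with earlier results of these data known. The text names all 9 annexins, genes of the partner lists with each list's largest difference in either direction, the 5 genes nearest to Anxa8 and to the most abundant member, Hdac4, and cell type markers. An item left out of the lists is not reported here. Exons come from GENCODE M21 and promoters from RefSeq (GRCm38.p6).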

Additional observations from a re-analysis of the deposited data

How the results depend on the processing

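The median difference of the annexin genes, 0.39, lay between 0.32 and 0.45 under the 16 alternatives run, and moved by less than the spread between replicates in each. Without 1 library it was 0.33 to 0.45. Of 143 single values, 142 were above 0 and 130 lay within the spread between replicates. Many of these repeat the main value by construction. Filters, gene types, the prior and the replicate term leave a gene's own difference unchanged, and the median of the family then changes only where a filter drops a member. Only pseudocounts, scalings, left-out libraries and, for unsettled genes, a shift of the level can move a single value. The exception in sign was Anxa11, -0.05 without control 3. Anxa8 ranged from 0.35 to 1.88 with the pseudocount. Its call with protein-coding genes alone and that of Anxa3 with the replicate term are no evidence, since the contrast chose the family and Anxa8 passed the filter only through the KO libraries. Among all tested genes, 11 were called (4 higher, 7 lower). The count was 5 with a pseudocount of 5, 21 with a mean of at least 5 FPKM, 99 with protein-coding genes alone, 7 after quantile normalization, and 22 with genes above 0 in every library, an alternative chosen after seeing the data, as were the open levels at a 10th and at 10 times. The open level settings shifted only Anxa1, Anxa4, Anxa7 and Anxa11. Unsettled levels of all other tested genes were not varied, so how the calls depend on those levels was not tested. It was 0 with no filter on low values, where 2743 genes had an unadjusted p under 0.05 in limma. Without 1 library it ranged from 0 to 64: 53 without control 3, 64 without control 4, and 0 without KO 3 or KO 4, where 821 and 1006 genes had an unadjusted p under 0.05. The partner genes called were 1 with protein-coding genes alone and 0 under every other alternative, leave-one-out fits included (0 to 0).

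A replicate block gave 62 genes. The deviations of libraries with the same number correlated at -0.059 across genes. The labels link these libraries by nothing but the number and do not say whether they shared a batch. Median-ratio scaling shifted the median of all genes by 0.05. The depth of the libraries is unknown, and genes as low as Anxa8 in the controls carry the widest bounds.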
